A study of Homo sapiens with 6 samples.

Results

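The transcripts examined here are those of 10 genes of the circadian clock, namely PER1, PER2, PER3, CRY1, CRY2, BHLHE40, BHLHE41, NR1D1, NR1D2 and DBP, found by gene name among the 19823 genes of the expression table. All 10 had values, and all 10 passed the limit on reads that left 18130 genes for testing. The list was chosen by name with the measured difference between isoproterenol and untreated samples already known, so this difference is given below as a description only. RNA-seq of poly(A) RNA was carried out on 6 samples of glutamatergic excitatory neurons (iNeurons) differentiated from the human pluripotent stem cell line WTc11. In all 6 the RNA-binding protein RBM12 was depleted by CRISPR interference, in which a dCas9-KRAB repressor is guided to the promoter of a gene. The 3 untreated samples were compared with 3 treated with isoproterenol (an agonist of the beta-2-adrenergic receptor that raises cAMP) at a dose and for a time that the labels do not state. The neurons came from the parental line, which carries the receptor at its native level, and were made by expressing the transcription factor NGN2 from a doxycycline-inducible promoter. Since the untreated samples carry the same knockdown, made with 1 guide, the results describe depleted neurons only, and control-guide neurons were not analysed here.

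The circadian clock is a transcriptional feedback loop present in most cells. The factors CLOCK and BMAL1 bind E-box elements and drive the PER and CRY genes, whose proteins return to the nucleus and repress them. BHLHE40 and BHLHE41 (also called DEC1 and DEC2) repress at the same E-boxes, NR1D1 and NR1D2 (REV-ERB alpha and beta) repress BMAL1, and DBP carries the rhythm to genes with D-box elements. Stimuli that raise cAMP or calcium act on the loop from outside, mainly by way of CREB, a transcription factor that binds cAMP response elements (CRE), and PER1 is the classic clock gene induced in this way in neurons.

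Values are normalized counts, that is, reads divided by the size factor of the sample, and a log2 fold change is isoproterenol minus untreated on the log2(value + 1) scale. Reads recovered from these values and summed over the listed genes numbered between 18116816 and 21488793 per sample. The 9 genes listed as markers of glutamatergic neurons all had values. Their summed level was 123423 to 125569 in untreated and 122609 to 127696 in isoproterenol samples. Most of this sum came from STMN2 (median 65232) and MAP2 (median 33775), which mark neurons in general. The glutamate transporters SLC17A6 and SLC17A7 had medians of 13652 and 3103. The pan-neuronal tubulin TUBB3 was low for such a marker, at 69.2 to 94.4. Of the markers of other cells, those of GABAergic neurons (3 of 3 with values) summed to 55.3 to 60.0 in untreated and 66.9 to 79.0 in isoproterenol samples. The 2 of 5 astrocyte markers with values, AQP4 and S100B, summed to 159.8 to 175.1 and 134.4 to 156.8, and the 2 of 3 oligodendrocyte markers, nearly all MBP, to 922.1 to 960.0 and 986.0 to 1095. The pluripotency markers (2 of 3 with values) summed to 19.4 to 19.8 and 14.4 to 28.8, and 0 of 3 proliferation markers had values. The groups did not overlap for the GABAergic, astrocyte and oligodendrocyte sums, as was the case for 12.9% of all single genes tested. The part of these marker levels in the results was not tested, and in bulk samples fewer cells of a type and less RNA per cell cannot be told apart. RBM12, the targeted gene, was at 244.3 to 278.7 normalized counts in untreated and at 194.6 to 237.6 in isoproterenol samples, so its groups did not overlap. It was lower with isoproterenol in each pair of same-numbered samples, with a log2 fold change of -0.25. The limma adjusted p was 0.607, and 0.131 with the replicate number as a block. Its depletion could not be checked without control-guide neurons.

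BHLHE40 was the clock gene with the largest difference between the groups. It lies on chromosome 3 from 4979437 to 4985323 (GRCh38, plus strand; ENSG00000134107). BHLHE40 stood at 88.8, 70.6 and 113.8 normalized counts without isoproterenol (replicates 1 to 3) against 197.6, 177.6 and 386.7 with it. Every isoproterenol sample was above every untreated one, and isoproterenol replicate 3 stood well above the other isoproterenol samples. The mean went from 91.1 ± 21.7 to 254.0 ± 115.4 (SD, n = 3 per group), a log2 fold change of 1.41 (SE 0.34 without the replicate pairs and 0.13 with them), or 2.65-fold. Within pairs of same-numbered samples the fold was 2.21, 2.49 and 3.38. Leaving out 1 sample at a time, the log2 fold change was lowest when isoproterenol replicate 3 was dropped (1.06) and highest when isoproterenol replicate 2 was (1.62). In untreated neurons 35.0% of the tested genes had a lower mean than BHLHE40, and with isoproterenol 48.5% did. Its lowest sample held 73 reads, for which counting alone gives an error of 11.7%.

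PER1, a repressor of CLOCK and BMAL1, was the only other member that was higher with isoproterenol in all 3 pairs. It lies on chromosome 17 from 8140472 to 8156506 (minus strand; ENSG00000179094). PER1 was at 1224, 1151 and 1319 normalized counts without isoproterenol (replicates 1 to 3) against 1314, 1395 and 1563 with it. The highest untreated sample was just above the lowest isoproterenol sample, so the groups overlapped. The mean was 1231 ± 84.0 in untreated and 1424 ± 127.0 in isoproterenol samples (SD, n = 3 per group), a log2 fold change of 0.21 (SE 0.067 without the pairs and 0.044 with them). The fold within pairs was 1.07, 1.21 and 1.19. The fold of PER1 was smaller than that of BHLHE40 in each pair, from a far higher count.

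**Figure D1:**
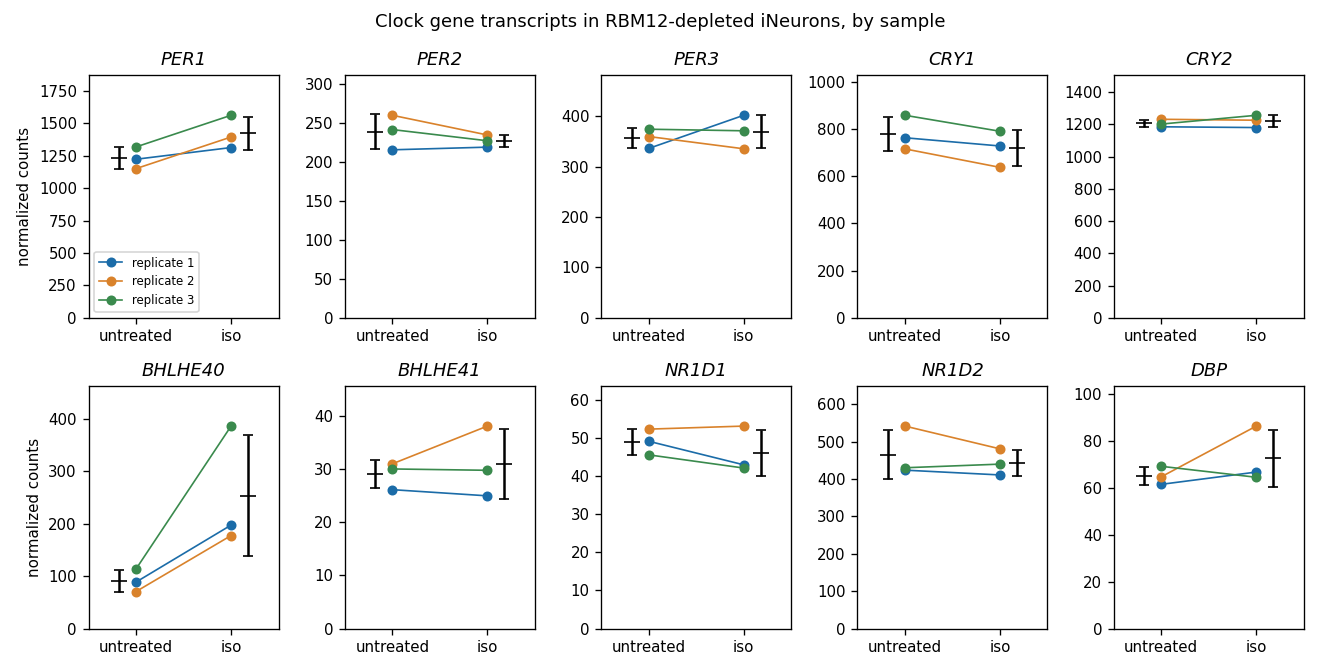
Normalized counts (y axis, from 0) of the 10 clock genes in each of the 6 samples, with same-numbered untreated and isoproterenol (iso) samples joined by a line and the mean ± SD of each group (n = 3) in black beside the points. BHLHE40 slopes upward along all 3 lines and its groups are separate, PER1 slopes upward in all 3 and CRY1 downward in all 3, and the lines of the other 7 genes point in mixed directions.

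Promoter sequences of all 10 genes, from 250 bases before to 50 after the start site, were taken from RefSeq (GRCh38.p14), which gives PER3, CRY2 and NR1D2 a pair of start sites each. A gene was counted as holding a motif if any of its promoters did, whereas the shares over all promoters count single promoters. The full CRE, TGACGTCA, was found in 0 of the 10 genes and in 1.85% of all 35116 promoters. Its shorter core, TGACG or CGTCA, was found in PER2, CRY1, CRY2 and NR1D2 and in 24.6% of all promoters. The canonical E-box, CACGTG, which reads the same on both strands, was found in BHLHE40, BHLHE41, PER1 and NR1D2 and in 7.26% of all promoters. The 4 genes with an E-box are shown because they include BHLHE40 and PER1, the genes higher in all 3 pairs, as well as BHLHE41 and NR1D2, whose pairs differed in direction. Capitals mark E-boxes and short CRE cores, each sequence reads 5′ to 3′ on the strand of its gene, and the windows are chr3:4979187-4979486, plus strand (BHLHE40), chr17:8152355-8152654, minus strand (PER1), chr12:26124988-26125287, minus strand (BHLHE41) and chr3:23945871-23946170, plus strand (NR1D2, its second start site).
BHLHE40: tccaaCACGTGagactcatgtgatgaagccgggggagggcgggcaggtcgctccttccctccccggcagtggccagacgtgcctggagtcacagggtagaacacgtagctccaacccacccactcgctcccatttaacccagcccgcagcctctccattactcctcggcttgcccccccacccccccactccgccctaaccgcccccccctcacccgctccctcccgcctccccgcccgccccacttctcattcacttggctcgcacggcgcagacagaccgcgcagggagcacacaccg
PER1: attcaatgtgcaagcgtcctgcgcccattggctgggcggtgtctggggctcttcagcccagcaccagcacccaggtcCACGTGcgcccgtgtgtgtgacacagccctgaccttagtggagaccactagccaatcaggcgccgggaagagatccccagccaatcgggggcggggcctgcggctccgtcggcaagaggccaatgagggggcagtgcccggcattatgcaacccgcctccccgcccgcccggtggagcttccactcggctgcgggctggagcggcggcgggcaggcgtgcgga
BHLHE41: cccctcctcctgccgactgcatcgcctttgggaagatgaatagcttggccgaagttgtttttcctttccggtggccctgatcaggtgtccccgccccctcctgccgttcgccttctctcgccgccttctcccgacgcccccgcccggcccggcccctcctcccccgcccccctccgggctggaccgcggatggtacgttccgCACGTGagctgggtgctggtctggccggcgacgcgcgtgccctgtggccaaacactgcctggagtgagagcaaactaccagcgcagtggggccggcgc
NR1D2: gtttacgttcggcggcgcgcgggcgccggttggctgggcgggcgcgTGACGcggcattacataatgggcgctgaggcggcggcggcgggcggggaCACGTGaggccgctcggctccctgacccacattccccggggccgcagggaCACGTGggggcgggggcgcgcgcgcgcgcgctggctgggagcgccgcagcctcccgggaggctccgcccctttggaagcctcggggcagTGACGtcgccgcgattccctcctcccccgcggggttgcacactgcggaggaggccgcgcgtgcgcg
The E-box begins 245 bases before the start site in BHLHE40, 173 in PER1, 48 in BHLHE41 and 155 and 105 in NR1D2. The CRE cores of NR1D2 begin 204 and 16 bases before its second start site, and the windows of BHLHE40, PER1 and BHLHE41 hold none. The window of PER1 lies inside the annotated gene, since its RefSeq start site is downstream of the outermost annotated start. BHLHE40 and PER1 share an E-box in this window with BHLHE41 and NR1D2. D-boxes (TTATGTAA or TTATGCAA, either strand) were found in PER1, 30 bases before the start site, and in PER3 and NR1D2, and in 0.886% and 0.846% of all promoters for the 2 spellings. A variant E-box (CACGTT or AACGTG) was found in PER2, CRY1, CRY2 and NR1D1 (5.34% of all promoters), and the core of the element bound by REV-ERB proteins (AGGTCA or TGACCT) in PER1 and CRY2 (13.8%). These matches describe letters in a short window and say nothing of binding, and elements farther from the start site were not searched.

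Across all genes, 0 of the 10 clock genes passed FDR 0.05 in the limma fit without the pairs, in which 0.0165% of the tested genes passed. Of the 10, 2 had an unadjusted p under 0.05 there, BHLHE40 and PER1, against 7.68% of all genes. In edgeR (0.0165% of all genes) and in DESeq2 (0.116%) without the pairs, 0 of the 10 passed as well. With the replicate number as a block, BHLHE40 and PER1 passed in limma, where 4.88% of all genes passed, and in edgeR, where 5.39% did. An unadjusted p under 0.05 in limma with the block was reached by 3 of the 10 (BHLHE40, PER1 and CRY1), against 16.2% of all genes. In DESeq2 with the block BHLHE40 passed and PER1 did not, and 0.789% of all genes passed. That fit gave no adjusted p for BHLHE41, NR1D1 and DBP, so these could not pass there. Groups that did not overlap were found in 1 of the 10 genes (BHLHE40) and in 12.9% of all genes tested. BHLHE40 and PER1 were higher in all 3 pairs, as were 18.5% of all genes, and CRY1 was lower in all 3, as were 17.6%. Since the genes were listed with this contrast known, these counts only describe them.

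The untreated and isoproterenol groups overlapped for both other period genes. PER2 (chromosome 2, 238244044 to 238290102; ENSG00000132326), the partner of PER1 in the repressor complex, was at 215.1, 259.3 and 241.0 without isoproterenol (replicates 1 to 3) against 218.5, 234.1 and 226.7 with it. The isoproterenol values lay inside the untreated range, with a log2 fold change of -0.07 and a 95% interval from -0.29 to 0.15. PER3 (chromosome 1, 7784291 to 7845177; ENSG00000049246) was at 336.2, 360.0 and 374.5 without isoproterenol (replicates 1 to 3) against 402.1, 335.6 and 371.3 with it. It was higher with isoproterenol in pair 1 and lower in pairs 2 and 3 (log2 fold change 0.05, interval -0.14 to 0.24). PER3 shares 868 exonic bases with UTS2 on the opposite strand, which was at 4257 to 7161 normalized counts. UTS2 was higher with isoproterenol in each pair (log2 fold change 0.21, limma adjusted p 0.888 without the block and 3.6e-09 with it). The strand setting of the counting is not given in the sources used here.

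The cryptochromes are the partners of the period proteins in repression. CRY2 (chromosome 11, 45847118 to 45883248; ENSG00000121671) was at 1185, 1232 and 1202 without isoproterenol (replicates 1 to 3) against 1180, 1226 and 1257 with it. These 6 values span a narrow range, and the interval of its log2 fold change (0.02) ran from -0.10 to 0.13, the narrowest of the 10 genes. CRY1 (chromosome 12, 106991364 to 107093549; ENSG00000008405), the stronger repressor of the pair, was at 763.3, 716.0 and 858.6 without isoproterenol (replicates 1 to 3) against 728.4, 637.8 and 790.9 with it. It was lower with isoproterenol in each pair, by -0.07, -0.17 and -0.12 on the log2 scale, while the groups overlapped. Its log2 fold change was -0.12 (interval -0.29 to 0.06, and -0.23 to -0.0051 with the replicate block), and it passed FDR 0.05 neither with nor without the block.

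BHLHE41, the close relative of BHLHE40, lies on chromosome 12 from 26120030 to 26125037 (ENSG00000123095) and was the least abundant of the 10. It was at 26.1, 31.0 and 30.0 without isoproterenol (replicates 1 to 3) against 24.9, 38.1 and 29.7 with it. The groups overlapped, and the pairs gave log2 fold changes of -0.06, 0.29 and -0.01. Each of these values rests on 25 to 33 reads, for which counting alone gives an error of up to 20%, and the interval of its log2 fold change (0.07) ran from -0.47 to 0.61. A change of the size of BHLHE40 lies outside this interval, but one of the size of PER1 could not be detected at this depth.

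The REV-ERB genes and DBP, which are activated through E-boxes by CLOCK and BMAL1, showed no common direction. NR1D1 (chromosome 17, 40092793 to 40100589; ENSG00000126368) was at 49.1, 52.3 and 45.5 without isoproterenol (replicates 1 to 3) against 42.9, 53.0 and 42.1 with it. NR1D2 (chromosome 3, 23945286 to 23980617; ENSG00000174738) was at 423.9, 541.9 and 430.3 without isoproterenol (replicates 1 to 3) against 411.1, 480.9 and 440.1 with it. Replicate 2 was the highest of both groups in both genes, and the groups overlapped. The log2 fold change was -0.09 for NR1D1 (interval -0.53 to 0.34) and -0.06 for NR1D2 (interval -0.26 to 0.14). DBP (chromosome 19, 48630030 to 48637379; ENSG00000105516) was at 61.6, 64.8 and 69.3 without isoproterenol (replicates 1 to 3) against 66.9, 86.5 and 64.6 with it. Its highest value was that of isoproterenol replicate 2, and pair 3 went in the other direction from pairs 1 and 2 (log2 fold change 0.14, interval -0.24 to 0.52).

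**Figure D2:**
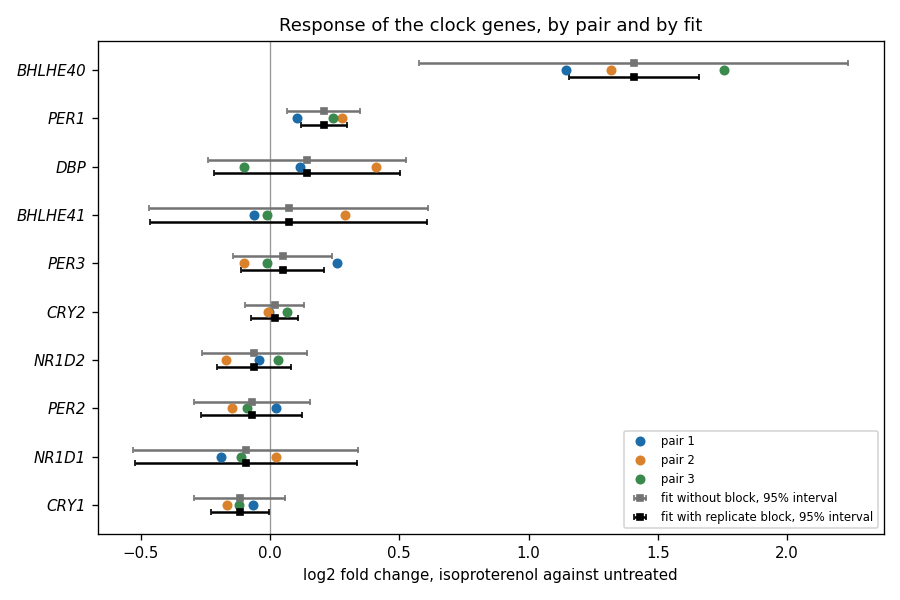
Log2 fold change of each clock gene, isoproterenol against untreated (x axis), within the 3 pairs of same-numbered samples (coloured points) and in limma without and with the replicate block (squares with 95% intervals). BHLHE40 lies at 1.15, 1.32 and 1.76 in the 3 pairs, PER1 between 0.10 and 0.28, and the other 8 genes between -0.19 and 0.41.

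As a group the 10 genes had a median log2 fold change of 0.03, with 6 higher and 4 lower, beside a median of 0.0015 over all genes tested. In 6 of the 10 the log2 fold change was within 0.1 of 0. Several of these genes overlap a neighbour. NR1D1 shares 473 exonic bases with THRA on the opposite strand, whose mean was 2445 in untreated and 2231 in isoproterenol samples. The log2 fold change of THRA was -0.13 (limma adjusted p 0.596 without the block and 0.0094 with it). DBP shares 661 with SPHK2, also opposite (log2 fold change 0.06). BHLHE40 shares 451 with BHLHE40-AS1, at 2.05 to 8.98 normalized counts, and BHLHE41 shares 162 with SSPN (log2 fold change -0.17). With the strand setting unknown, the levels and fold changes of these genes and of PER3 are uncertain to the extent of the shared bases. The same holds for PER2, which shares 188 exonic bases with a noncoding RNA on the opposite strand, and for CRY1, which shares 94. PER1 shares 78 with MIR6883 and 30 with a protein-coding gene, both on its own strand, which no strand setting separates. The part of the overlaps was not tested.

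The abundance of the 10 genes differed widely. Per kilobase of exon, and averaged over the 6 samples, CRY2 (195.7 normalized counts per kilobase), PER1 (189.6) and CRY1 (156.7) led, followed by NR1D2 (78.5), BHLHE40 (49.1), PER3 (44.7), PER2 (32.8), NR1D1 (18.1), DBP (10.6) and BHLHE41 (7.78). The ranges over samples of CRY2 and PER1 overlapped, as did those of PER1 and CRY1, of NR1D2 and BHLHE40, of BHLHE40 and PER3, and of DBP and BHLHE41. The other neighbours in this order were separate in all 6 samples. The length used was that of all annotated exons of a gene together, and the order depends on it. For DBP this length was 6485 bases and for NR1D1 2630. Before division by length DBP (61.6 to 86.5 normalized counts) lay above NR1D1 (42.1 to 53.0). BHLHE40 moved within the order. Its mean was 25.9 per kilobase in untreated neurons, below PER2 (33.6), and 72.2 with isoproterenol, above PER3 (45.5) and below NR1D2 (76.6). The second mean was raised by isoproterenol replicate 3, at 110.0, the highest of the 6 samples.

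A second question was whether the clock genes differed between the replicate numbers, which both groups share. Same-numbered samples deviated together from their group means (the correlations are given with the methods), so the numbers were treated as pairs, and what they mark is not stated in the labels. In the limma F test of the replicate number, with treatment in the fit, 4 of the 10 clock genes passed FDR 0.05, against 10.3% of all genes tested. These were BHLHE40 (limma adjusted p 1.19e-05), CRY1 (0.0075), PER1 (0.016) and NR1D2 (0.037). The same 4 passed in edgeR, where 10.8% of all genes did. Both tests take their error from how far the pairs disagree, and the pairs belong to the contrast known when the genes were listed. BHLHE40, PER1 and CRY1 had pairs that all went in 1 direction. These counts are therefore a description too.

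The 4 genes did not share 1 order of the replicates. BHLHE40 was lowest in replicate 2 and highest in replicate 3 in both groups, with mean deviations from the group means of -0.14, -0.38 and 0.52 (log2) in replicates 1, 2 and 3. CRY1 ran in the same order of replicates as BHLHE40 in both groups, with -0.00074, -0.14 and 0.14. PER1 deviated by -0.059, -0.060 and 0.12, so that replicate 3 was the highest in both groups. NR1D2 had another order, with replicate 2 highest in both groups (-0.12, 0.17 and -0.057). Replicate 3 had both the highest BHLHE40 level and the largest fold within its pair (3.38), but its isoproterenol sample enters both values. Replicate 2, with the lowest level, had a larger fold (2.49) than replicate 1 (2.21). Which genes passed changed with the sample left out, and each such fit also had fewer samples from which to estimate the spread. Without isoproterenol replicate 3 only NR1D2 of the 10 genes passed, without untreated replicate 3 only BHLHE40 did, and without isoproterenol replicate 2 BHLHE40 and PER1 did. Without any 1 of the other 3 samples, BHLHE40, CRY1 and PER1 passed and NR1D2 did not. The other 6 clock genes had adjusted p-values of 0.613 to 0.813 in this test with all samples.

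**Figure D3:**
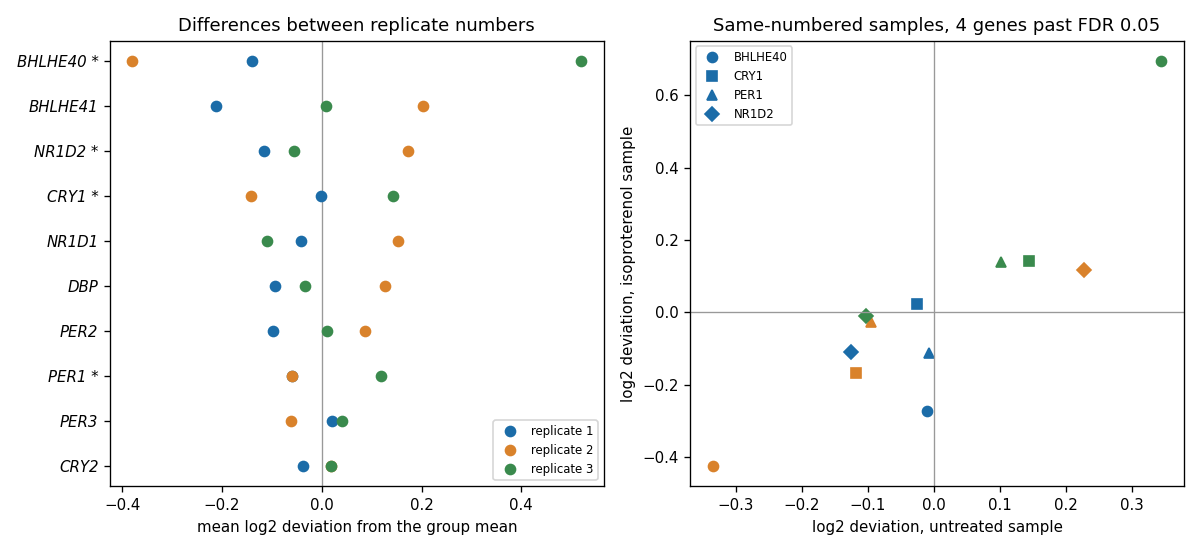
Left, mean log2 deviation of each replicate number from the group means (x axis) for the 10 clock genes, with an asterisk on those past FDR 0.05 in the limma F test of the replicate number. Right, for those 4 genes, the log2 deviation of the untreated sample (x axis) against that of the isoproterenol sample of the same number (y axis), with shapes for genes and the same colours for replicates; BHLHE40 spans -0.38 to 0.52 and CRY2 -0.037 to 0.018 in the left panel.

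The other genes of the clock were examined with a list of 34 genes written from general knowledge, of which 32 had values and all 32 were tested (the other 2 were not analysed here). In limma 0 of the 32 passed FDR 0.05 either without or with the replicate block, beside 0.0165% and 4.88% of all genes. NFIL3 had the smallest limma adjusted p in both fits (0.596, and 0.059 in the blocked one). An unadjusted p under 0.05 was reached by 1 of the 32 (7.68% of all genes), and by 4 in the blocked fit (16.2%). In edgeR with the block 1 of the 32 passed, beside 5.39% of all genes. This was SFPQ, a splicing protein found with the PER complex (log2 fold change -0.07, edgeR adjusted p 0.0476), which is named because it passed there. The median log2 fold change was -0.012, with 12 higher and 20 lower, and 27 of the 32 were within 0.1 of 0.

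The activators CLOCK, ARNTL (BMAL1), ARNTL2, NPAS2, RORA and RORB had log2 fold changes from -0.25 to 0.11, with 1 higher and 5 lower. The 1 higher was CLOCK, which was at 550.3, 478.0 and 517.2 normalized counts without isoproterenol (replicates 1 to 3) against 587.7, 569.7 and 509.8 with it, with overlapping groups (0.11). ARNTL2, a paralog of BMAL1, had -0.13, and RORB, an orphan receptor, -0.25 on as few as 8 reads in a sample. The D-box factors TEF, HLF and NFIL3 ran from -0.07 to 0.18. NFIL3, which represses where DBP activates, was at 729.9, 612.5 and 612.4 without isoproterenol (replicates 1 to 3) against 728.4, 718.5 and 763.2 with it. It was level in pair 1 and higher in pairs 2 and 3 (log2 fold change 0.18, interval 0.023 to 0.34), with groups that overlapped through untreated replicate 1.

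The 8 kinases, casein kinases 1 and 2 and GSK3, which phosphorylate the PER proteins and other clock proteins, ran from -0.09 to 0.06. The 5 ubiquitin ligases and proteases, which set the stability of clock proteins, ran from -0.02 to 0.08, and NOCT, NAMPT and SIRT1 from -0.04 to 0.09. Among 7 other repressors and partners of PER, CIART, a repressor of CLOCK and BMAL1, was lower in all 3 pairs (-0.27, interval -0.77 to 0.24), but without untreated replicate 2 its log2 fold change was -0.00081. TIPIN had 0.09 (interval -0.43 to 0.61). Of the 32 genes 9 were lower in all 3 pairs, beside 17.6% of all genes, and 3 were higher in all 3, beside 18.5%. The limma F test of the replicate number called 3 of the 32, beside 10.3% of all genes, a share near that background. These were FBXW7, NAMPT and CIART, of which FBXW7 and NAMPT are named because they passed. CIART was, like NR1D2, highest in replicate 2 in both groups, at 101.6 in the untreated and 71.5 in the isoproterenol sample.

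**Figure D4:**
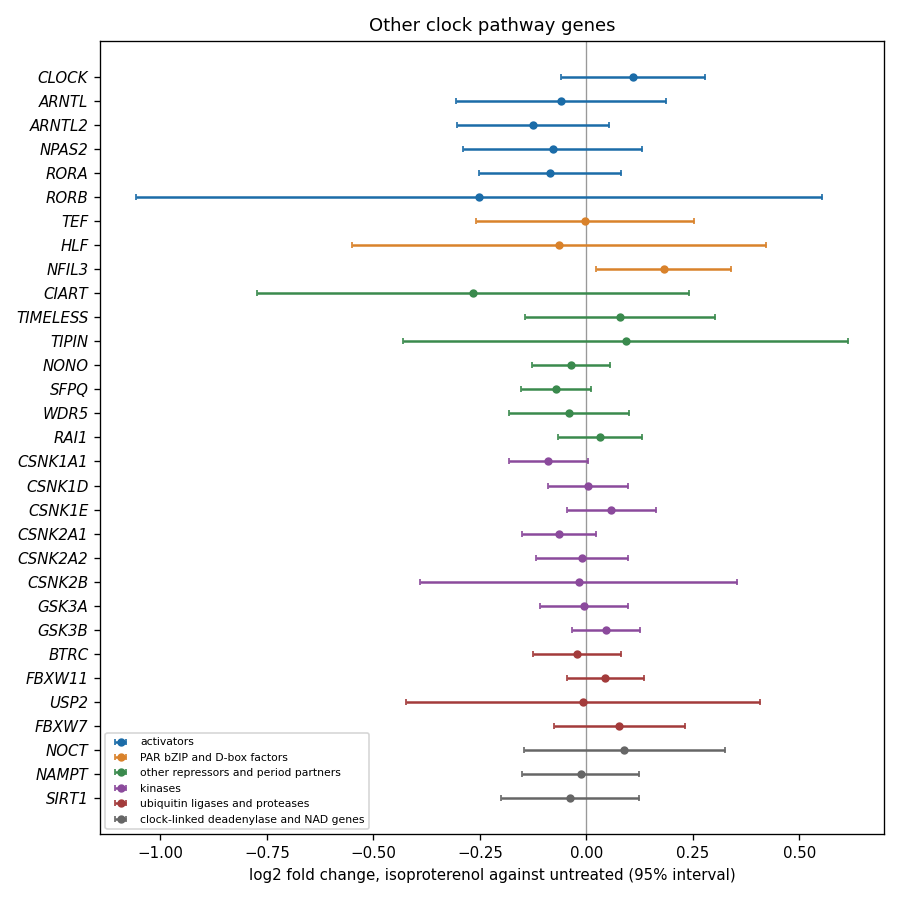
Log2 fold change, isoproterenol against untreated (x axis), of the other clock genes, 1 of the 32 not drawn, with 95% intervals from limma without the replicate block, coloured by class. All points lie between -0.27 and 0.18, the widest interval is that of RORB, and that of NFIL3 alone leaves out 0.

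The genes nearest to BHLHE40 in their pattern over the 6 samples, among 11554 genes outside the clock lists whose mean reached 100 normalized counts, were GEM, FOSL2, FOS, CSRNP1 and SKOR2. Likeness was the root mean square difference of the log2 values centred on the mean of each gene, which was 0.19, 0.24, 0.29, 0.31 and 0.33 in this order. GEM encodes a small GTPase, FOS and FOSL2 subunits of AP-1, CSRNP1 a nuclear protein and SKOR2 a corepressor. GEM was at 152.5, 92.9 and 167.6 without isoproterenol (replicates 1 to 3) against 255.4, 229.5 and 434.9 with it. Within each group its samples ran in the same order as those of BHLHE40. For PER1 the nearest genes were PDLIM7, PARD6A, INF2, PLEKHG5 and KLHL21, at 0.023 to 0.040, with log2 fold changes of 0.16 to 0.25. The measure was taken over all 6 samples, so similar fold changes follow from the ranking itself. This measure is not scaled to the size of a gene's differences, which were small for PER1. The values for PER1 and BHLHE40 therefore cannot be compared. FOS went from 621.2 to 1735 normalized counts on average, a log2 fold change of 1.44. Its samples rose from replicate 1 to 3 in both groups, another order than in BHLHE40. Over the nearest genes of both lists the limma adjusted p ran from 0.399 to 0.700 without the block. With the block it was 0.287 for PARD6A and at most 0.027 for the others.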

How the data were processed

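Poly(A) RNA libraries of 6 samples were made with a directional kit. Per the study's methods the authors aligned reads to GRCh38 with STAR and counted them per gene with featureCounts, and the submitters' processing notes also name Subread and FastQC. Versions, annotation and strand setting are not given in the sources used here. The deposited table holds a signal, the DESeq2 normalized count (reads divided by 1 size factor per sample). Every value above 0 (100.0%) was a whole multiple, within 0.05 of a read, of a single step per column, which gave back whole reads.

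Genes with more than 5 reads in at least 4 samples were kept, as in the study's methods. Groups and replicate numbers came from the sample titles. Because the values were normalized, the main test was limma 3.58.1 (R 4.3.3; trend, robust) on log2(value + 1), two-sided, with Benjamini-Hochberg adjustment over all genes tested. Same-numbered samples deviated together from their group means (correlations 0.269, 0.493 and 0.388 over the 11587 genes whose mean reached 100), so the numbers were taken as pairs. The replicate number was tested with limma's F test. Alternatives were other scalings, filters and pseudocounts, the replicate block, edgeR 4.0.16 and DESeq2 1.42.0 on the recovered reads, and leaving out each sample. Scripts were tested on simulated data. Replicates were distinct libraries (chi-square per degree of freedom 3.44 to 5.73). Nothing states that they came from separate cultures, so p-values measure the spread between these samples, which may be technical.

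Of the other clock genes, 1 that is counted is not reported here by name. Positions and exon lengths came from GENCODE 44 (99.6% of identifiers matched). The members and lists were chosen with earlier results of these data known. The genes named are the 10 members, RBM12, other clock genes past FDR 0.05 in limma with or without the block or with the 3 largest rises or falls, and the 5 nearest in pattern to BHLHE40 and to PER1. Outside this rule, SFPQ, FBXW7 and NAMPT are named after their values were seen, and some other clock genes only as members of their class.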

Additional observations from a re-analysis of the deposited data

How the results depend on the processing

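Among the 18 alternatives for the contrast, the replicate block moved the counts most. Past FDR 0.05 were 3 genes in limma without the block, 885 with it, 977 in edgeR with the block, 21 in DESeq2 and 143 in DESeq2 with the block. The clock members past FDR 0.05 numbered 0, and 2 with the replicate block in limma and in edgeR and 1 in DESeq2 with the block. Of the other clock genes, 0 passed, and 1 passed in edgeR with the block. Leaving out 1 sample at a time gave 2 to 67 genes (67 without isoproterenol replicate 2), 0 clock members and 0 other clock genes. The median log2 fold change of the members, 0.033, ran from -0.011 to 0.054 over these fits, so its sign is not stable. The genes that differ by replicate number, 1866, ran from 1107 to 1633 with 1 sample left out, the clock members from 1 to 3 and the other clock genes from 0 to 3. TIPIN, which passed in none of these fits, ran from -0.097 (without isoproterenol replicate 2) to 0.34 (without isoproterenol replicate 1), and the cause was not tested.

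BHLHE40 kept its direction in every alternative that tested it (1.06 to 1.62), as did PER1 (0.14 to 0.26), CRY1 (-0.19 to -0.034) and NR1D1 (-0.20 to -0.034). PER2 (-0.14 to -0.0085) and DBP (0.012 to 0.22) kept their sign but came close to 0 without untreated replicate 2 and without isoproterenol replicate 2, respectively. PER3, CRY2, BHLHE41 and NR1D2 changed sign in at least 1, by less than the spread between replicates. When the mean had to reach 50, BHLHE41 and NR1D1 were not tested. Depth limits BHLHE41, NR1D1 and DBP, with at most 75 reads in any sample.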
